A study of Mus musculus with 2 samples.

Results

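The genes described here are Bmp4, a ligand of the bone morphogenetic protein (BMP) pathway, its classic target genes Id1, Id2, Id3, Id4, Msx1 and Msx2, and the inhibitor genes Smad6, Smad7 and Bambi. They were taken by their symbols from the deposited table, where all 10 members had 1 row each among 17827 rows. The study compared mouse embryonic stem cells labelled as knockout for Setd2, whose product places the trimethyl mark on lysine 36 of histone H3, with wild-type cells, and sequenced 1 RNA library of each genotype. Both came from the mixed strain 129SV/C57BL/6 at passages 10 to 12, grown on feeder cells and then moved to gelatin for 1 passage, and collected 2 days later. Neither received a treatment. How Setd2 was disrupted, and whether each line is 1 clone, was not stated in the labels. Transcripts of the Y chromosome were far higher in the knockout library, as given below, so the libraries differ in more than the Setd2 label. With 1 library per genotype there is no replicate, no test and no error between cultures, so each difference below describes these 2 libraries and has no replicate check.

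BMP4 binds a pair of receptor kinases at the cell surface, which phosphorylate SMAD1 and SMAD5. These join SMAD4, enter the nucleus and switch on the Id genes. Id proteins bind E proteins, a class of helix-loop-helix transcription factors, and keep them from DNA. In mouse embryonic stem cells, BMP4 together with the cytokine LIF sustains self-renewal, and Id genes are among the targets that carry this effect. SMAD6, SMAD7 and BAMBI act back on the pathway as inhibitors, and their genes are themselves targets.

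Levels are given in CPM, that is, reads over a gene per 1000000 reads over all genes of the library, where a read is 76 sequenced bases. The knockout library held 52041677 such reads and the wild-type library 56129838. Setd2 itself was at 174 CPM in the knockout library, against 452 CPM in wild-type cells. The knockout level was thus 38.5% of that in wild type (95% counting interval 37.6 to 39.4%). This value covers the whole gene, and since the disrupted part was not stated it does not by itself check the label. Intervals here hold counting error alone; the libraries carry no molecular identifiers, so copies of 1 molecule could be counted as separate reads. Embryonic stem cell markers were present in both libraries, with Dppa5a at 584 and 458 CPM, Pou5f1 at 544 and 558 CPM and Tdgf1 at 445 and 547 CPM in knockout and wild-type cells. Their levels were not alike throughout: of 9 with a value, 7 had a log2 fold below 0 and 2 above 0, with a median of -0.30, and 1 was past 2-fold. That gene was Zfp42, a marker of the naive state, at 68.1 CPM in knockout and 283 CPM in wild-type cells, 24.1% of wild type (23.21 to 24.97%), and Utf1 was at 92.7 and 159 CPM. Nanog went the other way, at 310 and 221 CPM, a ratio of 1.40 (1.37 to 1.44). Esrrb and Klf4 were within 2-fold, at 77.1% and 78.0% of wild type. Zfp42 lies on chromosome 8, whose 719 genes had a median log2 fold of -0.35. The part of that shift in the value of Zfp42 was not tested.

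Of the 10 genes, Bmp4 was the one at least 2-fold lower in knockout cells and Id2 the one at least 2-fold higher. The count used log2((knockout + 0.5)/(wild type + 0.5)) on CPM and a floor of 1 CPM on the mean of both libraries, which 9 of the 10 genes reached, each of these 9 in both libraries. Msx1 lay below that level. Among all 13523 genes compared, 2.11% were lower by at least 2-fold and 1.76% higher by as much, and 1 gene of 9 each way is too small a count to set against these shares. At 1.5-fold, 3 of the 9 were lower (Bmp4, Smad7 and Id1) and 1 was higher (Id2), beside 6.77% of all genes lower and 7.42% higher. The median log2 fold of the 9 genes was -0.04, and that of all genes 0.05. In the remaining genes, Id3, Id4, Smad6, Bambi and Msx2, the counting interval of the ratio held 1.

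**Figure D1:**
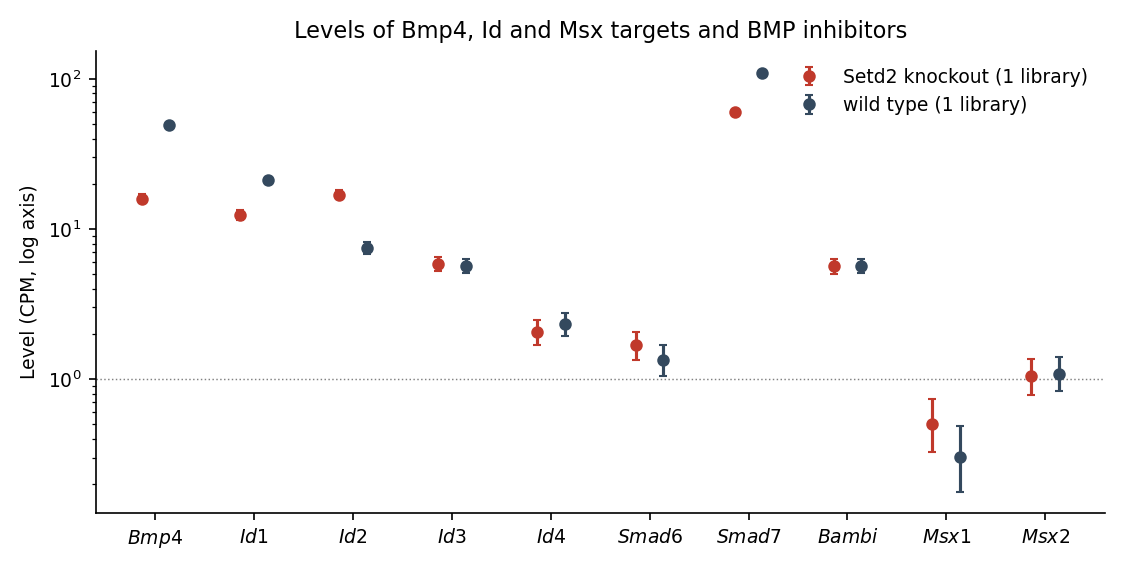
Level of each gene in CPM on a log axis in the Setd2 knockout library and the wild-type library, with 95% Poisson counting intervals; the dotted line marks 1 CPM. Bmp4, Id1 and Smad7 are lower and Id2 is higher in the knockout library, while the intervals of the other genes overlap.

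The ligand gene Bmp4 (gene number 12159, minus strand, chr14:47003196-47010274, mm9) was at 15.9 CPM in knockout cells and 49.3 CPM in wild-type cells. These levels stood for 827 and 2767 reads. The knockout level was 32.2% of that in wild type (counting interval 29.8 to 34.9%), a log2 fold of -1.60. Of the 13523 genes compared, 92 had a lower fold. None of 194 windows of 76 bases from its exons aligned elsewhere in the genome with at most 2 mismatches, a count of 0. On the opposite strand the annotated gene Gm15217 covers 89 bases of its exons. Whether strand was used in counting was not stated in the sources used, and Gm15217 was listed at 0.000756 CPM in knockout and 0.0407 CPM in wild-type cells.

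The promoter windows of Bmp4, Id2, Id3 and Id4 are shown because Bmp4 and Id2 were the genes past 2-fold in opposite directions, and Id3 and Id4 are relatives of Id2 whose levels were close in the libraries. They are RefSeq sequences of build GRCm38.p6, 250 bases before to 50 bases after the start site, 5′ to 3′ on the strand of the gene, at chr14:46390620-46390919 for Bmp4, chr12:25096043-25096342 for Id2, chr4:136143572-136143871 for Id3 and chr13:48260866-48261165 for Id4. Capitals mark GGCGCC, a GC-rich motif that BMP-activated Smads bind, and CAGAC, the Smad-binding box. A box on the other strand reads GTCTG. Both motifs were searched on both strands, and no matches overlapped.
Bmp4: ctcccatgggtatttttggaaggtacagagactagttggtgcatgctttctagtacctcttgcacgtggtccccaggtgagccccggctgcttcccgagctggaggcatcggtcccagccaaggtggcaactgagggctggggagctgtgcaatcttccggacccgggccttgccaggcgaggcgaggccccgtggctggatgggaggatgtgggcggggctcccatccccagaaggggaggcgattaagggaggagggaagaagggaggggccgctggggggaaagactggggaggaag
Id2: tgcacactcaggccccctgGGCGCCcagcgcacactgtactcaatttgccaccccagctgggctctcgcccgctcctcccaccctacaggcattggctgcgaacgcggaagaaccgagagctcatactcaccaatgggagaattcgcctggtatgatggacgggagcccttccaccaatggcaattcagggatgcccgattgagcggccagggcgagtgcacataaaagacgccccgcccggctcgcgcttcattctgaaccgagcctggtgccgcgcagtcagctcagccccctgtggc
Id3: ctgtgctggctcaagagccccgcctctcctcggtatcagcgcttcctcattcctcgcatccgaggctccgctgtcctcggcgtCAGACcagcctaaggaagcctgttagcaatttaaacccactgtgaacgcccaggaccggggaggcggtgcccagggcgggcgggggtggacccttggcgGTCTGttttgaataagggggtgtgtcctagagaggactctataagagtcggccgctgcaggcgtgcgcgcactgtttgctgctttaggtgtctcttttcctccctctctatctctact
Id4: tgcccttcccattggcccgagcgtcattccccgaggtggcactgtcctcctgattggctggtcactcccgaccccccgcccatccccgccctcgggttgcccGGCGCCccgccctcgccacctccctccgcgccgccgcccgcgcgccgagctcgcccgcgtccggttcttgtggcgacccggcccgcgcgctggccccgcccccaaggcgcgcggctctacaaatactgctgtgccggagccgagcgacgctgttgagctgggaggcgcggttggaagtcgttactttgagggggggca
The Id2 window holds 1 GGCGCC, which begins at position -231 from the start site, and the Id4 window holds 1, at -148. The Id3 window holds 2 copies of the Smad-binding box, at -167 and -68. The Bmp4 window holds 0 of either. Of 27025 RefSeq promoters, 1 per gene symbol, 12.0% hold GGCGCC and 49.7% hold CAGAC. These shares were not matched for GC content. It was 64% in the Bmp4 window, 63.3% in Id2, 60% in Id3 and 73.3% in Id4, against a median of 52.7% over all promoters. In all, 7 of the 10 genes had an entry, and the windows of Smad6, Msx1 and Msx2 hold 0 copies of either motif.

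Within the Id family, Id1 was lower and Id2 higher in knockout cells, while Id3 and Id4 were close. Id2 (gene number 15902, minus strand, chr12:25778664-25780957, mm9) was at 17.0 CPM in knockout cells and 7.46 CPM in wild-type cells, from 882 and 419 reads. The ratio was 2.27 (counting interval 2.02 to 2.56), a log2 fold of 1.13, and 165 of the 13523 genes had a higher fold. In 12.1% of its exon windows, 13 of 107, the sequence also occurs at a place on chromosome X, so part of its reads could have been placed there or come from there. How reads with several alignments were counted was not stated in the sources used.

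Id1 (gene number 15901, plus strand, chr2:152562010-152563146, mm9) went the other way, with 12.5 CPM in knockout and 21.1 CPM in wild-type cells. The knockout level was 59.2% of that in wild type (counting interval 53.7 to 65.2%), a log2 fold of -0.73. Id3 (gene number 15903, plus strand, chr4:135699737-135701307, mm9) was at 5.85 CPM in knockout and 5.67 CPM in wild-type cells, a ratio of 1.03 (0.881 to 1.21). Id4 (gene number 15904, plus strand, chr13:48356796-48359405, mm9) was the lowest of the family, at 2.05 CPM in knockout and 2.32 CPM in wild-type cells, a ratio of 0.883 (0.681 to 1.16). The direction of Id3 was not fixed, since its log2 fold of 0.04 became -0.01 when the knockout library was rescaled by a trimmed mean of log ratios. A gene on the opposite strand, A330033J07Rik, covers 10.3% of the exon bases of Id4, and its own level is not analysed here.

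The summed level of the 4 Id genes was nearly equal in the libraries although its make-up was not. The sum was 37.3 CPM in knockout and 36.5 CPM in wild-type cells, a ratio of 1.02 (counting interval 0.961 to 1.09). Levels of different genes were compared per kilobase of annotated exon. The exon lengths do not always match the deposited gene spans. Those of Id1 and Id3, 1160 and 1791 bases, are longer than the whole deposited spans, so their levels per kilobase may be too low. On the per-kilobase scale the family held 28.61 CPM per kb in knockout and 28.59 CPM per kb in wild-type cells. Id2 made up 46.7% of the family in knockout cells and 20.5% in wild-type cells, and Id1 made up 37.6% and 63.5%. The level of Id1 was 0.806 times that of Id2 in knockout cells and 3.09 times in wild-type cells, so that Id2 was the leading Id gene in knockout cells and Id1 the leading one in wild-type cells. By reads alone the order was the same. Id2 held 45.4% and Id1 33.4% of the family's reads in knockout cells, and 20.4% and 57.7% in wild-type cells. Id3 made up 11.4% and 11.1% of the family in knockout and wild-type cells, and Id4 4.31% and 4.89%. The sum was computed after the values of the single genes were seen.

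**Figure D2:**
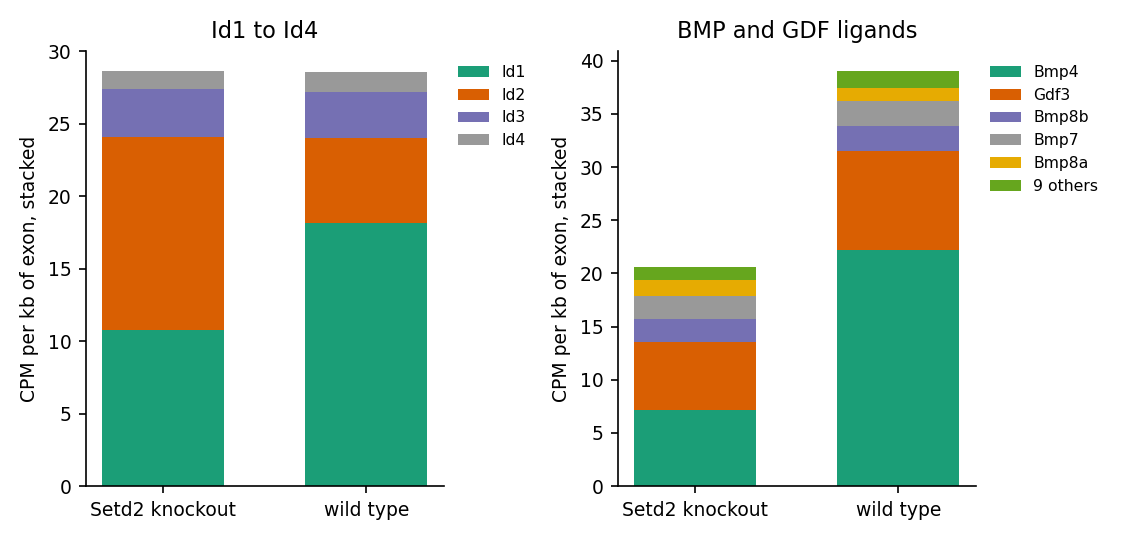
Stacked levels in CPM per kb of exon in the Setd2 knockout and the wild-type library, for Id1 to Id4 on the left and for 14 BMP and GDF ligand genes on the right. The Id stacks reach nearly the same height with Id1 and Id2 exchanged in rank, whereas the ligand stack is lower in knockout cells, with most of the difference in Bmp4.

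The inhibitors did not move together. Smad7 (gene number 17131, plus strand, chr18:75527019-75555588, mm9), whose product blocks receptors of the BMP and TGF-beta branches, was at 59.9 CPM in knockout and 109 CPM in wild-type cells. The knockout level was 55.1% of that in wild type (counting interval 52.7 to 57.5%), a log2 fold of -0.86, and rested on 3119 and 6108 reads. Smad6 (gene number 17130, minus strand, chr9:63800884-63869866, mm9), which acts mainly on the BMP branch, was at 1.68 CPM in knockout and 1.34 CPM in wild-type cells. Its ratio of 1.26 had a counting interval of 0.908 to 1.73, from 87 and 75 reads. Per kilobase, Smad7 stood 24.8 times above Smad6 in knockout cells and 56.5 times above it in wild-type cells.

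Bambi (gene number 68010, plus strand, chr18:3507955-3516402, mm9) encodes a membrane protein that resembles a receptor but lacks the kinase domain. It was at 5.669 CPM in knockout and 5.668 CPM in wild-type cells, a ratio of 1.00 (counting interval 0.851 to 1.18). The interval leaves room for a difference of up to 0.851-fold or 1.18-fold, so equality is not shown. Under each of the 3 rescalings its log2 fold was slightly below 0, at -0.03 to -0.05.

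The homeobox genes Msx1 and Msx2, targets of BMP signalling in limb, tooth and skull development, were near the lower limit of the measurement. Msx1 (gene number 17701, minus strand, chr5:38211730-38215824, mm9) had 26 reads in knockout and 17 reads in wild-type cells. Its ratio of 1.65 had an interval of 0.862 to 3.24, so a difference was not detectable at this depth. Msx2 (gene number 17702, minus strand, chr13:53562250-53568149, mm9) was at 1.05 CPM in knockout and 1.08 CPM in wild-type cells, a ratio of 0.965 (0.650 to 1.40).

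**Figure D3:**
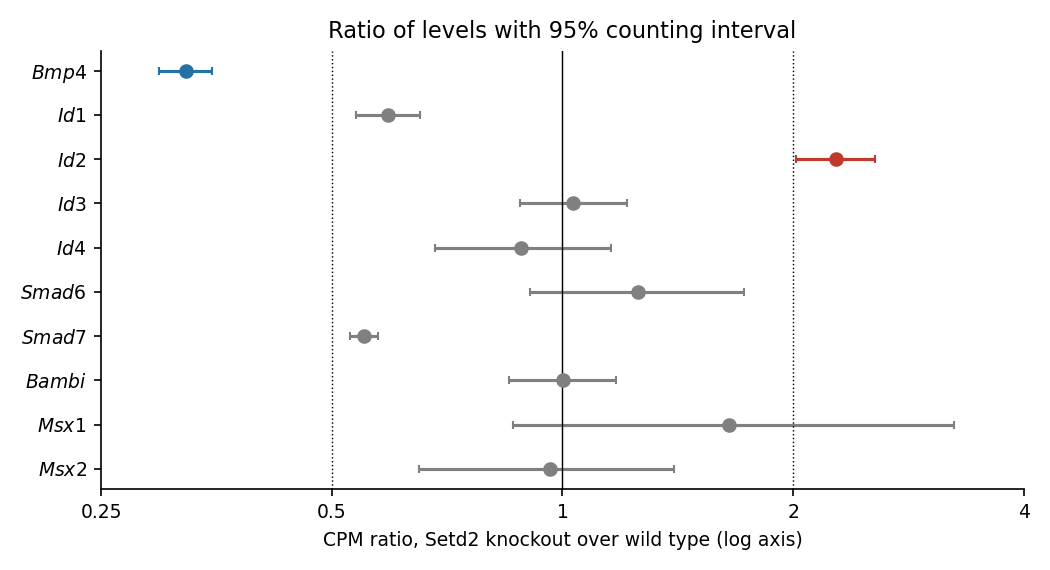
Ratio of CPM levels, Setd2 knockout over wild type, on a log axis, with exact conditional binomial 95% counting intervals; dotted lines mark 0.5 and 2. Bmp4 at 0.322 lies left of the lower line and Id2 at 2.27 right of the upper line, and the intervals of Id1 and Smad7 also leave out 1.

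Ranked per kilobase of exon, the order of the 4 highest genes differed between the libraries. The intervals hold counting error alone and not error in exon length, which may put Id1 and Id3 too low. In knockout cells Id2 and Smad7 led, at 13.4 and 13.3 CPM per kb, with overlapping counting intervals, followed by Id1 at 10.8 and Bmp4 at 7.15 CPM per kb. In wild-type cells Smad7 led at 24.1 CPM per kb, followed by Bmp4 at 22.2, Id1 at 18.2 and Id2 at 5.87 CPM per kb, with intervals that did not overlap between neighbours. Id3, at 3.27 CPM per kb in knockout and 3.16 CPM per kb in wild-type cells, was next in both. Id4 and Bambi followed, between 1.12 and 1.40 CPM per kb, and their intervals overlapped in both libraries. Smad6 and Msx2 lay between 0.426 and 0.535 CPM per kb, again with overlapping intervals. Msx1 was last at 0.258 CPM per kb in knockout and 0.157 CPM per kb in wild-type cells. Its interval overlapped that of Msx2 in knockout but not in wild-type cells.

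**Figure D4:**
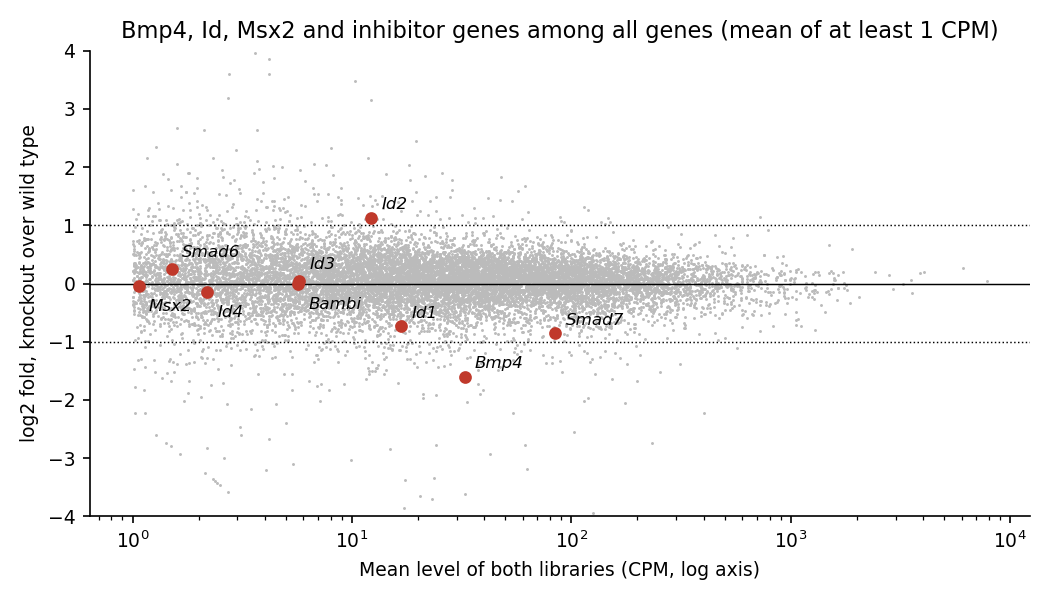
Log2 fold, knockout over wild type, against the mean level of both libraries in CPM on a log axis for all 13523 genes over the floor of 1 CPM (grey) and for the 9 genes described (red); 27 genes lie outside the axis. Bmp4 and Id2 lie beyond the dotted 2-fold lines, and Id1 and Smad7 lie between the lower line and 0.

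The other ligand genes were not lower in knockout cells to the extent of Bmp4. Of 13 listed ligand genes 5 reached the floor, and 0 of these were past 2-fold either way, with a median log2 fold of -0.11. Of these 5, 4 had a log2 fold below 0 and 1 above 0. Gdf3, a ligand of the same superfamily abundant in embryonic stem cells, was at 13.5 CPM in knockout and 19.8 CPM in wild-type cells, 68.4% of wild type (counting interval 62.1 to 75.2%). Bmp7 was at 8.59 and 9.31 CPM in knockout and wild-type cells, Bmp6 at 2.18 and 2.60 CPM, and Bmp8a at 3.52 and 2.89 CPM, each with an interval that held 1. Bmp8a and Bmp8b are close copies, so the values of both are uncertain. Shared exon sequence was not checked for them, and both enter the ligand sums. Summed over Bmp4 and the 13 others, the ligands were at 20.6 CPM per kb in knockout and 39.0 CPM per kb in wild-type cells. Bmp4 made up 34.7% of that sum in knockout and 56.9% in wild-type cells.

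Receptor genes lay close together. Of 10 with a value, all over the floor, 0 were past 2-fold and the median log2 fold was -0.10. The type I receptor gene Bmpr1a was at 145 CPM in knockout and 139 CPM in wild-type cells, a ratio of 1.04 (counting interval 1.01 to 1.08), and the type II receptor gene Bmpr2 at 37.0 and 43.4 CPM, a ratio of 0.853 (0.803 to 0.906). Acvrl1, a receptor best known from blood vessels, was at 3.50 and 2.93 CPM. The co-receptor gene Rgma had the largest difference, with 3.39 CPM in knockout and 1.62 CPM in wild-type cells, a ratio of 2.09 (1.62 to 2.73), which on the scale with a pseudocount is a log2 fold of 0.88. Its relative Hfe2, the hemojuvelin gene, was at 1.78 and 2.77 CPM.

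Among the Smads that carry the signal, Smad5 and the shared partner Smad4 were higher and Smad1 lower. Smad5 was at 99.9 CPM in knockout and 80.1 CPM in wild-type cells, a ratio of 1.25 (counting interval 1.20 to 1.30). Smad4 was at 111 and 89.3 CPM, a ratio of 1.24 (1.19 to 1.29). Smad1 was at 14.6 and 19.9 CPM, a ratio of 0.730 (0.665 to 0.802). Zfp423, a zinc finger partner of BMP-activated Smads, was at 45.3 CPM in knockout and 118 CPM in wild-type cells, 38.4% of wild type (36.6 to 40.2%), and was the 1 gene of 5 in this list past 2-fold. Smad1 and Zfp423 lie on chromosome 8, whose 719 genes had a median log2 fold of -0.35. The part of that shift in these values was not tested. None of Bmp4, the Id genes, the Msx genes and the inhibitors lies on chromosome 8, and the medians of the 8 chromosomes that carry them ran from 0.04 to 0.13. The 5 genes of the Y chromosome over the floor had a median log2 fold of 6.20, so the libraries also differed in Y-linked transcripts. The 506 genes of the X chromosome had a median of 0.17, the highest of any chromosome but Y. Whether the difference in Y-linked transcripts has a part in the values here was not tested.

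Extracellular antagonists differed from each other. The 9 genes over the floor had a median log2 fold of 0.24, and past 2-fold on that scale, with its pseudocount, were 1 lower and 0 higher. Grem1, a secreted protein that traps BMP2 and BMP4, was at 3.56 CPM in knockout and 9.87 CPM in wild-type cells, 36.1% of wild type (counting interval 30.3 to 42.6%). Tll1, a protease that cleaves the antagonist chordin, was at 5.47 and 9.33 CPM and lies on chromosome 8. Chrdl1, a chordin-like antagonist whose gene lies on the X chromosome, was at 2.20 CPM in knockout and 0.873 CPM in wild-type cells, a ratio of 2.52 (1.80 to 3.61) but a log2 fold of 0.98 with the pseudocount, and reached the floor only through the knockout library. Nog, Cer1 and Fstl3 are not analysed here, nor are Bmp10 and Acvr1 of the lists above.

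Intracellular inhibitors outside the member genes were all within 2-fold, with 0 of 10 past it and a median log2 fold of -0.03. Tob2, of a family that represses Smad activity, was at 26.3 CPM in knockout and 44.7 CPM in wild-type cells, 58.8% of wild type (counting interval 55.0 to 62.9%). The Smad corepressor gene Ski was at 156 and 212 CPM, 73.6% (71.5 to 75.7%). A pair of phosphatase genes of 1 family differed in direction, with Ctdsp1 at 12.0 and 16.1 CPM and Ctdsp2 at 122 and 102 CPM.

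Other genes known as BMP targets were mixed, with a median log2 fold of 0.31 over the 8 that reached the floor, of which 1 was higher and 1 lower by 2-fold or more. Cdx2, a caudal-type homeobox gene, was at 2.80 CPM in knockout and 0.539 CPM in wild-type cells, a ratio of 5.20 (counting interval 3.52 to 8.06), and reached the floor only through the knockout library. Tnc, which encodes the matrix protein tenascin C, was at 44.3 and 104 CPM, 42.4% of wild type (40.4 to 44.5%). Dlx3, a distal-less homeobox gene, was at 5.48 and 3.15 CPM and Hey1, a Notch and BMP target, at 6.12 and 4.39 CPM, with ratios of 1.74 (1.43 to 2.11) and 1.39 (1.17 to 1.65). Over all 7 lists, 50 of 72 pathway genes with a value reached the floor. Past 2-fold were 1 higher, Cdx2, and 3 lower, Zfp423 on chromosome 8, Grem1 and Tnc. Among all genes compared, 1.76% were higher and 2.11% lower by as much.

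**Figure D5:**
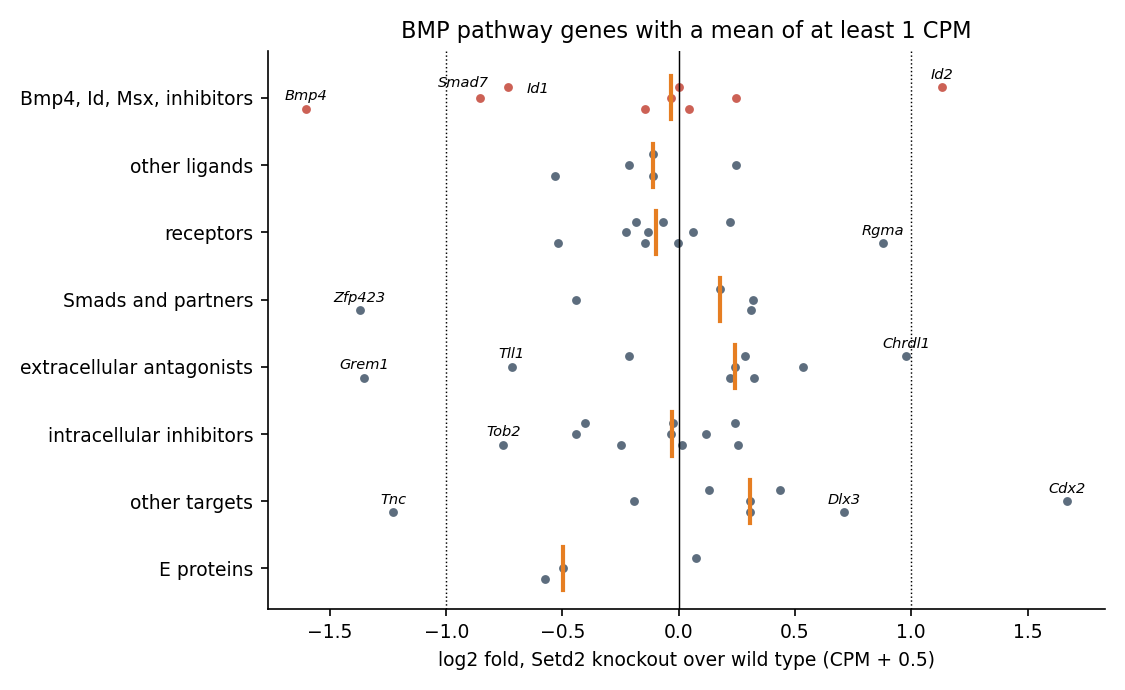
Log2 fold, knockout over wild type, of each gene over the floor of 1 CPM, in rows by role; points are single genes, orange bars are medians and dotted lines mark 2-fold. Bmp4 lies apart from the other ligands, Zfp423, Grem1 and Tnc lie beyond the lower line, and Id2 and Cdx2 beyond the upper one.

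Of the genes for the 3 E proteins that Id proteins bind, Tcf3 and Tcf12 were lower and Tcf4 was close. Tcf3, which encodes E2A, was at 80.4 CPM in knockout and 120 CPM in wild-type cells, 67.0% of wild type (counting interval 64.5 to 69.7%). Tcf12 was at 49.0 and 69.3 CPM, 70.7% (67.2 to 74.3%), and Tcf4 at 65.3 and 62.1 CPM, a ratio of 1.05 (1.00 to 1.10). The annotated exon lengths do not always match the deposited gene spans, which limits ratios between families. Per kilobase, the summed level of the Id genes was 0.810 of the summed level of the 3 E protein genes in knockout cells and 0.583 in wild-type cells. These are levels of transcripts, and protein was not measured.

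In bulk libraries fewer cells of a type and less RNA per cell cannot be told apart, so markers of cell types other than embryonic stem cells were read beside the genes above. Fibroblast markers, which stand for the feeder cells, summed to 111 CPM in knockout and 139 CPM in wild-type cells over 15 genes. Of 10 over the floor, 8 had a log2 fold below 0 and 2 above 0, and their median was -0.31; past 2-fold were 1 lower and 0 higher. The most abundant were Col1a1 at 31.3 and 45.0 CPM, Col5a1 at 22.0 and 23.0 CPM and Acta2 at 15.0 and 18.7 CPM in knockout and wild-type cells. Lum was listed at 0 in knockout cells and at 0.0713 CPM in wild-type cells. Among the 10 markers over the floor, the lowest log2 fold was -1.01. The part of feeder cells in the levels of Bmp4, Grem1 and Tnc was not tested.

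Primitive endoderm markers were lower in knockout cells, with a median log2 fold of -1.19 over the 8 that reached the floor. Of the 8, 5 were lower by 2-fold or more and 0 higher, beside 2.11% of all genes lower by as much. Of these 5, Gata6 at 0.953 and 6.00 CPM and Sox7 at 0.788 and 2.81 CPM in knockout and wild-type cells reached the floor only through the wild-type library, as did Amn among the other 3. The median includes Gata6, Sox7 and Amn. The markers summed to 337 CPM in knockout and 436 CPM in wild-type cells over 10 genes, of which Lrp2 at 304 and 312 CPM was the most abundant, followed by Cubn at 4.50 and 60.9 CPM and Dab2 at 12.2 and 25.3 CPM. None was listed at 0, and the defining gene Sox17 was at 0.287 and 0.588 CPM. Trophoblast markers summed to 45.3 CPM in knockout and 28.6 CPM in wild-type cells over 9 genes, with 5 of 5 over the floor above 0. The most abundant, all within 2-fold, were Krt18 at 16.9 and 10.3 CPM, Krt8 at 10.4 and 6.26 CPM and Eomes at 8.83 and 7.02 CPM. Cdx2 was the 1 gene at least 2-fold higher, beside 1.76% of all genes, and reached the floor only through the knockout library. Elf5 was at 0.0769 CPM in knockout cells and listed at 0 in wild-type cells. Mesoderm markers summed to 7.02 and 5.07 CPM over 8 genes, with Msgn1 listed at 0 in both libraries and Mesp1 in knockout cells. Of 3 over the floor, T was at 3.10 and 0.470 CPM, a ratio of 6.59 (4.39 to 10.5), and reached it only through the knockout library, while Mixl1 and Kdr had log2 folds of -0.18 and -0.22. Neural markers summed to 148 and 99.3 CPM over 7 genes, led by Nes at 126 and 60.2 CPM, at least 2-fold higher in knockout cells. The next, Tubb3, was at 17.6 and 35.6 CPM, a ratio of 0.495 (0.457 to 0.536), and Pax6, the remaining gene over the floor, at 4.03 and 2.95 CPM. Tubb3 lies on chromosome 8, whose genes were shifted down as a whole. The part of these cell types in the levels of Bmp4, Id1, Id2 and Smad7 was not tested.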

How the data were processed

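RNA sequencing of 1 Setd2 knockout and 1 wild-type library was analysed from 1 deposited table of 17827 gene rows. Each library was grouped by its genotype label. The submitters' processing notes name CASAVA 1.6.0, TopHat 1.0.13 and the build mm9, but not what each was used for. The deposited values are log2 values. The header names RPKM, but the values read as log2(x + 1) of sequenced bases over a gene divided by 76, unscaled for depth or length: where x was between 0 and 200, it gave whole bases within 0.05 for 85.7% of values in the knockout and 85.9% in the wild-type library. The table has 0 other columns of values.

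Values were turned back to reads, scaled to a total of 1000000 and compared as log2((knockout + 0.5)/(wild type + 0.5)) with a 2-fold threshold and a floor of 1 CPM (mean of both libraries). The design foresaw counts or CPM; no count test was run, since 1 library per group allows none. Keeping the highest row of repeated symbols left 17817 genes. Ratios carry exact conditional binomial 95% intervals on rounded reads (1 CPM was 52.0 reads in the knockout and 56.1 in the wild-type library). Exon lengths came from GENCODE M1 on NCBIM37, the assembly of mm9, and do not always match the deposited gene spans, as for Id1 and Id3. Exon windows of 76 bases, 10 apart, were aligned with minimap2 2.31. Python 3.11.15 and scipy 1.17.1 were used. The procedure was tested on simulated libraries of 13523 genes: of 100 genes set 3-fold apart 99% passed 2-fold, of 100 genes set 1.5-fold apart 0% did, and intervals held the true ratio for 92% of the genes set 3-fold apart, 94% of those set 1.5-fold apart and 95.4% of unchanged genes. The simulated counts were Poisson, which is the error that the intervals assume. These shares therefore say nothing of copied reads or of variation between cultures.

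The genes, lists and tests were chosen with earlier results of these data known. Named were the 10 genes, Setd2, the core route (Bmpr1a, Bmpr2, Smad1, Smad5, Smad4, Tcf3, Tcf4, Tcf12), up to 4 genes of each pathway list with the largest absolute fold over the floor, and the 3 most abundant of a marker list. Those of the mesoderm list (T, Kdr and Mixl1) and of the trophoblast list (Krt18, Krt8 and Eomes) were named after their values were seen. Others are named as exceptions: the genes listed at 0, overlapping genes, Sox17 and, after their values were seen, Zfp42, Utf1, Gata6, Sox7 and Amn. Nanog, Esrrb and Klf4 were named beside Zfp42, also after their values were seen. One gene of the antagonist list is not reported here and was left out of the list counts. Alternatives were other pseudocounts, floors, thresholds and scalings.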

Additional observations from a re-analysis of the deposited data

How the results depend on the processing

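No paired analysis was possible because each genotype has a single library, which also means that neither library can be left out. Of 60 recomputed log2 folds of the 10 genes, 59 stayed inside their counting interval and 0 of the called ones changed sign; Smad7 left its interval at -0.97 with the deposited values taken at face value, an alternative chosen after seeing the data. Bmp4 ran from -1.74 to -1.57 and Id2 from 1.07 to 1.17 over these settings. The signs of Id3 and Bambi changed in 7 recomputed values. At 1.5-fold 1004 of all genes were higher and 916 lower, 3 of the 10 genes were lower, and 4 other pathway genes were higher and 5 lower. At 3-fold 62 of all genes were higher and 93 lower, 0 of the 10 genes were higher (Bmp4 was still lower) and 0 other pathway genes were lower, as the thresholds imply. With a floor of 5 CPM 108 of all genes and 0 other pathway genes were higher. A pseudocount of 0.1 CPM made 3 other pathway genes higher and gave 331 higher and 331 lower genes in all. Taken at face value, the deposited values gave 2 other pathway genes higher, 434 of all genes lower and 268 higher, and a summed Id ratio of 0.948, which has no depth scaling. The Setd2 log2 fold of -1.37 was -1.43 with the median log2 ratio set to 0, -1.43 with the trimmed mean and -1.49 at face value. The rescalings shifted all folds by -0.05 to -0.04, which is less than the counting interval of any of the 10 genes reaches. No rescaled fold could thus leave its interval, and no called gene could change sign. That these values stayed inside was fixed by the size of the shift and is no check of the results. Depth limits Msx1, Msx2 and Smad6, whose intervals are the widest.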

Other observations

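Below the floor of 1 CPM, several pathway genes had few reads and unequal levels. They were chosen after their values were seen. Atoh8, a helix-loop-helix gene known as a BMP target, had 4 reads in knockout and 30.0 reads in wild-type cells, a ratio of 0.144 (counting interval 0.0368 to 0.408). Runx2, the bone transcription factor gene, had 17.0 and 50.2 reads, a ratio of 0.365 (0.198 to 0.647). Bmper, which encodes a secreted BMP modulator, had 23.0 and 66.9 reads, a ratio of 0.371 (0.220 to 0.602). Tbx2, a T-box gene, went the other way with 21.4 reads in knockout and 4 reads in wild-type cells, a ratio of 5.78 (1.91 to 22.7). At these depths the intervals are wide, and with 1 library per genotype no replicate stands behind them.

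Among the more abundant genes, Dusp9, a MAP kinase phosphatase gene that BMP4 induces in mouse embryonic stem cells, was at 105 CPM in knockout and 120 CPM in wild-type cells, a ratio of 0.874 (0.843 to 0.906). Dusp9 lies on the X chromosome, and the part of the difference in Y-linked transcripts or of the lower Bmp4 level in its value was not tested. Secreted modulators with high levels were above 1, with Fstl1 at 228 and 157 CPM, a ratio of 1.45 (1.41 to 1.49), and Twsg1, which binds BMP4 and chordin, at 165 and 132 CPM, a ratio of 1.25 (1.21 to 1.29). These genes too were chosen after their values were seen.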
